A study of Mus musculus with 36 samples.

Results

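The genes described here are 38 genes of the integrated stress response and the unfolded protein response, chosen by symbol as known parts of both pathways and followed across astrocyte cultures treated with a glucocorticoid, its antagonist, or both. Of the 38, 37 were on the array under their current or an older symbol, with 73 probes between them. All 37 passed the filter on dim probes, out of 18935 genes tested, and Slc7a5 had no probe of that name. Primary cortical astrocytes (the growth notes speak of cortex or hippocampus) came from C57B/6 pups at postnatal day 0 to 2 and were grown for 9 to 11 days in serum-containing medium until nearly confluent. The cultures then received vehicle, 100 nM corticosterone, 500 nM RU486, or 100 nM corticosterone together with 500 nM RU486, for 2, 4 or 6 h. This gave 12 groups of 3 arrays. The labels name no genotype other than the strain. Nothing in them states that the arrays of a group hold separate cultures, and the p-values therefore reflect array-to-array spread that may be technical.

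Glucocorticoids act through the glucocorticoid receptor, a steroid-activated transcription factor. Rodents use corticosterone as their chief glucocorticoid, and RU486, also called mifepristone, blocks the receptor. In the integrated stress response, kinases that sense misfolded proteins or missing amino acids phosphorylate the initiation factor eIF2, which lowers protein synthesis while the factor ATF4 is translated more and switches on genes for amino acid supply and tRNA charging. In the unfolded protein response, the sensors PERK, IRE1 and ATF6 in the endoplasmic reticulum (ER) membrane raise chaperones and the machinery that removes misfolded proteins. Astrocytes use parts of the same gene set for glutathione, serine and glutamate handling.

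Values are log2 of the deposited quantile-normalized intensities. They are not background-subtracted, so the differences of dim genes are understated. The array medians lay near 6.79 on that scale, and 5 of the 37 genes (Eif2ak3, Eif2ak4, Atf6, Edem1 and Hyou1) averaged within 0.5 of it. Of the 36 arrays, 34 had a median correlation with the others between 0.960 and 0.990. The other 2 stand apart: vehicle 6 h replicate 1 at 0.757, and replicate 3 of corticosterone with RU486 at 6 h at 0.886. On the first, 18 of the 37 genes lay more than 1 log2 unit from the mean of the other 2 arrays of the group, 8 higher and 10 lower. On the second, 9 did, 4 higher and 5 lower. Many results for the 37 genes are therefore given with all arrays and also without these 2. Results printed without naming the arrays used rest on all of them. For cell type markers and for pathway genes outside the set, only the fit with all arrays is given. Whether those results hold without the 2 is not shown. Measured astrocyte markers were bright on every array, with a summed intensity of 60418 to 102045 over 8 markers, and the 6 measured oligodendrocyte-lineage markers summed to 18976 to 39826. In bulk cultures, fewer cells of a type and less RNA per cell cannot be told apart. The steroid-induced genes Fkbp5, Tsc22d3 and Sgk1 rose under corticosterone by 2.54, 2.13 and 1.96 on the log2 scale, averaged over the 3 times.

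The promoters of the genes were searched for the sequences through which ATF4 and the ER stress factors are known to act. RefSeq promoters (250 bases before to 50 after the start, GRCm38.p6) were found for 33 of the 38 genes. TGATGNAA, the core of the element bound by ATF4 with C/EBP factors, was present on either strand in 3.97% of 32851 promoters. It was found in 9 of the 33 genes: Atf3, Trib3, Chac1, Slc7a11, Asns, Vldlr, Gars, Aars and Herpud1. The ER stress response element, CCAAT and CCACG with 9 bases between them, was present in 0.119% of promoters. It was found in 5 of the 33: Hspa5, Hsp90b1, Calr, Pdia6 and Dnajc3. Its end CCACG, which also counts inside the longer element, was present in 32.8% of promoters and in 23 of the 33 genes. A match describes letters and is not evidence of binding.

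The 6 promoters below belong to genes that passed with all arrays in a comparison of treatments or over time in vehicle. These promoters hold a copy of either element, which is in capitals. They are at chr1:191183284-191183583 (Atf3, minus strand), chr2:119350992-119351291 (Chac1, plus), chr14:118937682-118937981 (Dnajc3, plus), chr8:94386179-94386478 (Herpud1, plus), chr10:86705395-86705694 (Hsp90b1, minus) and chr3:50443564-50443863 (Slc7a11, minus), each 5′ to 3′. Atf3, Chac1, Herpud1 and Slc7a11 show TGATGNAA or its reverse complement, in Slc7a11 as 2 copies. Dnajc3 and Hsp90b1 show the ER stress response element, in Hsp90b1 as 2 copies in opposite orientation. Atf3 and Chac1 passed in no comparison of treatments with all arrays. Hspa5 and Trib3 also hold an element but passed only over time in a treated group, and are not printed.
Atf3: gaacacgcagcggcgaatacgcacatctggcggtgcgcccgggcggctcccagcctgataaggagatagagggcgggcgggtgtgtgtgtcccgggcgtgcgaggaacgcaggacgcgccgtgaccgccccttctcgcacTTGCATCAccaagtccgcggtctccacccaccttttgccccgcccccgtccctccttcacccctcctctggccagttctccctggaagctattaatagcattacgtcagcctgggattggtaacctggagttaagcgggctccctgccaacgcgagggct
Chac1: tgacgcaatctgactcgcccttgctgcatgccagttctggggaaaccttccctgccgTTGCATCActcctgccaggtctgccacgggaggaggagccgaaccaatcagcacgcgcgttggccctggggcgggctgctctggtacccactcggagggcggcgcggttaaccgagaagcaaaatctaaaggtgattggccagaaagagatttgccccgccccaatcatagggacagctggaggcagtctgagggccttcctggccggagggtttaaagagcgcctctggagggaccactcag
Herpud1: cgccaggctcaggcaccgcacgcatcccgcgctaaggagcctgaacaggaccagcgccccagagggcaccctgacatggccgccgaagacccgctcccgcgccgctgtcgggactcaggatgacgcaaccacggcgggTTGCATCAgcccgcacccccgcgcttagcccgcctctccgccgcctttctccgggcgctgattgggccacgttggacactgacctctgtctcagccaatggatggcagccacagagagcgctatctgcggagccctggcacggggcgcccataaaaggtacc
Slc7a11: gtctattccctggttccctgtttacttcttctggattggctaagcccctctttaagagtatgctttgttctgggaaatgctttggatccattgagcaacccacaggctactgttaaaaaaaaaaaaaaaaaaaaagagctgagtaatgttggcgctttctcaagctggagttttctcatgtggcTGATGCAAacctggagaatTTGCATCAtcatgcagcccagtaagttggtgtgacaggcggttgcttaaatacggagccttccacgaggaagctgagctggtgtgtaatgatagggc
Dnajc3: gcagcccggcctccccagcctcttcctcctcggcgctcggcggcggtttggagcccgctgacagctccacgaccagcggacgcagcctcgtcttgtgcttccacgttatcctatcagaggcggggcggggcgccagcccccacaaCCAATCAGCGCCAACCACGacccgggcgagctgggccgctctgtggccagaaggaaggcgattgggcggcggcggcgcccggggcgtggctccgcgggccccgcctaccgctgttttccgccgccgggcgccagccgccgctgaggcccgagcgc
Hsp90b1: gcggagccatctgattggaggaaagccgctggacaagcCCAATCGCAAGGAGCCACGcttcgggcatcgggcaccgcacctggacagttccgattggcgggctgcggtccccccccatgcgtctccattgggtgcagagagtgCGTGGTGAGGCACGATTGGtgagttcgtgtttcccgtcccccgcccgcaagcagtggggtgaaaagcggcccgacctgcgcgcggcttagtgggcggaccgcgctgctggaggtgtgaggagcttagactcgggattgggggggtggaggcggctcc

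The first comparison asked whether corticosterone alone moved these genes. Averaged over the 3 times, 1 of the 37 passed the threshold, where 2.96% of all genes tested did and 1.48% were higher. Herpud1, a membrane protein of the machinery that degrades misfolded ER proteins, was higher. Its 9 vehicle arrays had a lowest value of 11.42, a median of 11.58 and a highest of 12.23, and its 9 corticosterone arrays 11.68, 11.98 and 12.23. The log2 difference was 0.36 (SE 0.08, adjusted p = 0.0114 in limma), and without the 2 arrays it was 0.36 (adjusted p = 0.0056). It passed in all 18 fits that left out 1 array, and not in the fit of these groups alone (adjusted p = 0.0892). The groups overlapped at 2 h, where vehicle replicate 1 was as high as the highest corticosterone array, and did not overlap at 4 h or 6 h. At 4 h vehicle gave 11.58, 11.58 and 11.64 and corticosterone 11.81, 12.14 and 12.11. A second, dimmer probe of Herpud1 differed by 0.29 and did not pass (adjusted p = 0.137).

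At single times no gene of the set passed, with adjusted p of 0.05 as the threshold in limma, where 0.121% of all genes passed at 2 h, 0.829% at 4 h and 1.01% at 6 h. With an unadjusted p under 0.05 in limma there were 0, 4 and 8 of the 37. Of all 18935 genes tested there were 825, 1787 and 3733. The median difference of the 37, averaged over the times, was 0.05 on the log2 scale, beside -0.03 over all genes. With the 2 arrays that stand apart left out, 5 passed averaged over the times, all higher, where 12.4% of all genes passed and 5.08% were higher. With array weights and all arrays 14 passed, where 28.1% of all genes did. Beside Herpud1, the genes that passed without the 2 arrays were Slc3a2, the heavy chain shared by the cystine and large neutral amino acid exchangers (0.67, SE 0.12, adjusted p = 0.000224), Dnajc3, an inhibitor of eIF2 kinases and ER co-chaperone (0.34, SE 0.08), Mthfd2, a mitochondrial folate enzyme (0.34, SE 0.08), and Chac1, which degrades glutathione (0.31, SE 0.05). With all arrays none of these others passed, and their differences were smaller. Means of the 9 vehicle and 9 corticosterone arrays were 8.12 and 8.62 for Slc3a2, and 11.405 and 11.577 for Dnajc3. They were 10.32 and 10.57 for Mthfd2, and 8.96 and 9.11 for Chac1. A second probe of Mthfd2 differed by 0.30 with all arrays (limma adjusted p = 0.0725).

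The rise of Slc3a2 with corticosterone was plainest at 4 h. Vehicle gave 7.86, 7.80 and 7.89 and corticosterone 8.85, 8.52 and 8.62, groups that did not overlap, with a difference of 0.82 (SE 0.30, adjusted p = 0.266). Neither of the 2 arrays is at 4 h. Leaving them out kept the value and lowered its SE to 0.19 (adjusted p = 0.00826, where 8.83% of all genes passed), since the shared estimate of the spread was smaller. At 6 h vehicle replicate 1 stood at 9.79, above the other 2 vehicle arrays at 8.43 and 8.05 and above all 3 corticosterone arrays, which ranged from 8.64 to 9.44. The corticosterone effect at 6 h did not differ from that at 2 h for any of the 37 at the threshold, where 0.0581% of all genes differed. An unadjusted p under 0.05 was reached by 1 of the 37, beside 1222 of all 18935 genes tested.

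**Figure D1:**
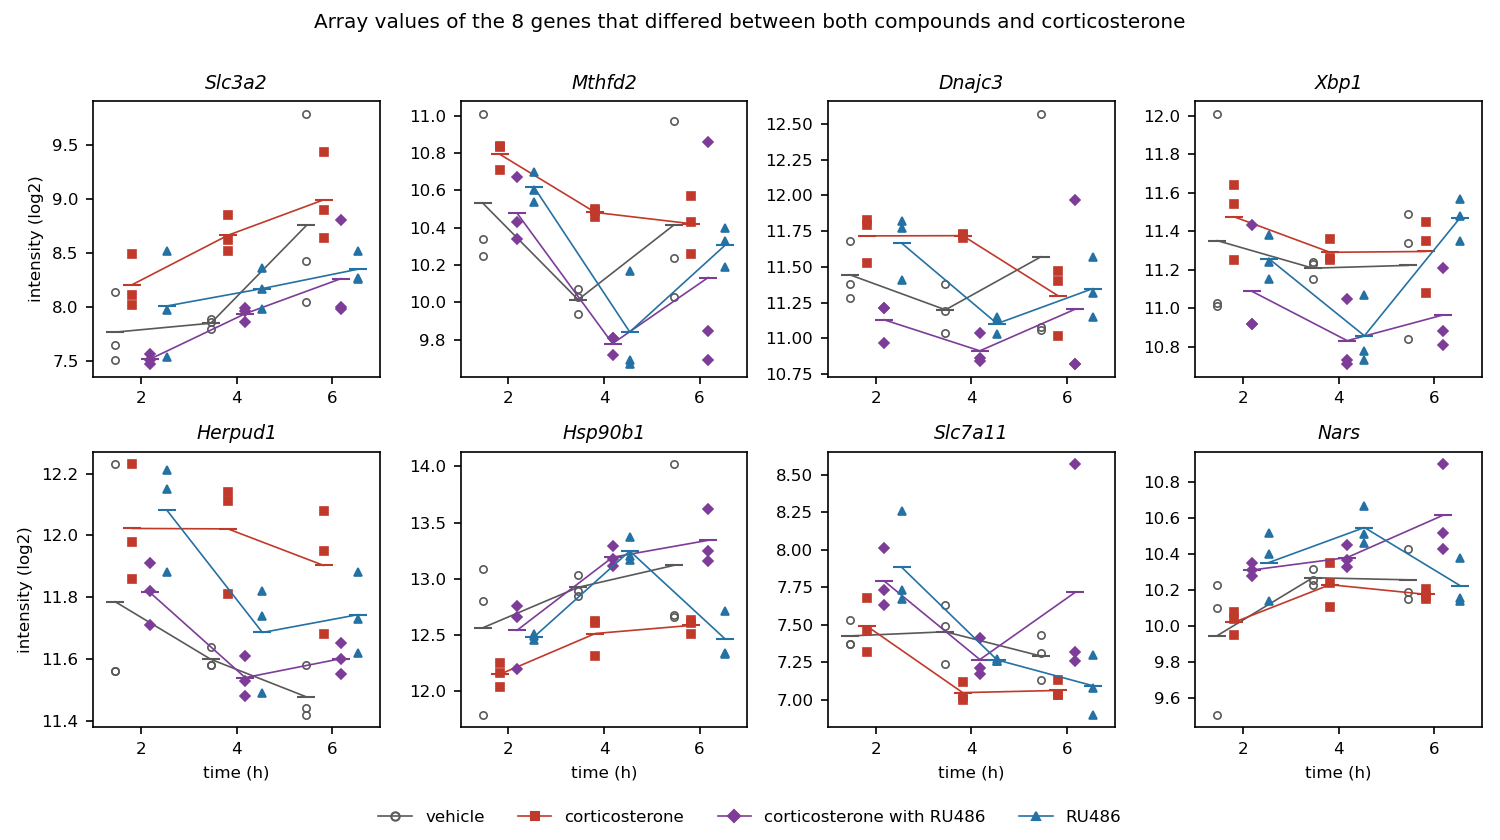
Each panel shows 1 gene, with log2 intensity on the vertical axis and the hour of treatment on the horizontal axis. Points are the 36 arrays in 4 treatments, short bars are group means and lines join them. Slc3a2, Mthfd2, Dnajc3, Xbp1 and Herpud1 had lower means in corticosterone with RU486 than in corticosterone at each time, and Hsp90b1, Slc7a11 and Nars had higher ones.

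The second comparison asked what adding RU486 to corticosterone did. Averaged over the times, 8 of the 37 passed, 3 higher and 5 lower, where 12.9% of all genes tested passed, 7.35% higher and 5.5% lower. The lower genes were Slc3a2, Dnajc3, Mthfd2, Xbp1 and Herpud1, and the higher ones Hsp90b1, Slc7a11 and Nars. By role, ATF4 targets had 1 higher and 2 lower of 10, tRNA synthetases 1 higher of 5, sensors and regulators 1 lower of 6, and ER chaperones and degradation factors 1 higher and 2 lower of 11. None of the 5 ATF4-branch factors passed. The median difference over the 37 was -0.07, beside 0.01 over all genes. With array weights 25 passed, where 48.3% of all genes did. This comparison and the first share the corticosterone arrays.

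Among the amino acid genes, Slc3a2 fell most. Its 9 corticosterone arrays ran from 8.02 to 9.44 with a median of 8.62, and its 9 arrays with both compounds from 7.47 to 8.81 with a median of 7.96. The groups did not overlap at 2 h or at 4 h, where both compounds gave 7.86, 7.96 and 7.99. The averaged difference was -0.72 (SE 0.17, limma adjusted p = 0.0053), and -0.81 without the 2 arrays (adjusted p = 6.67e-06). It passed in all 18 fits that left out 1 array, as did Nars, Hsp90b1 and Herpud1.

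Mthfd2 was lower (log2 difference -0.43, SE 0.13, adjusted p = 0.0263). At 4 h corticosterone gave 10.50, 10.46 and 10.49 and both compounds 9.72, 9.81 and 9.81. At 2 h and 4 h the groups did not overlap, and at 6 h replicate 3 with both compounds, 1 of the 2 arrays that stand apart, was at 10.86 against 9.85 and 9.69. The call was lost without corticosterone 6 h replicate 1, or without replicate 3 at 2 h or replicate 1 or 2 at 6 h of both compounds (adjusted p up to 0.0688). Its second probe differed by -0.19 (adjusted p = 0.22).

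Slc7a11, the cystine and glutamate exchanger that pairs with Slc3a2, moved the other way. Its corticosterone arrays reached at most 7.68 with a median of 7.12, and those with both compounds ran from 7.17 to 8.57 with a median of 7.41. The difference was 0.39 (SE 0.12, adjusted p = 0.0331), and 0.25 (adjusted p = 0.0158) without the 2 arrays, 1 of which holds the value of 8.57. The groups overlapped at 2 h and not at 4 h or 6 h. Leaving out 1 array ended the call for 8 of the 18, which were corticosterone 2 h replicates 2 and 3, 4 h replicates 1 and 3 and 6 h replicates 2 and 3, and replicate 1 of both compounds at 2 h and at 4 h (adjusted p up to 0.0733), and so did fitting these groups alone (0.0683). Of its 2 other probes, 1 passed with a difference of 0.30 and the other differed by 0.02. These averaged 6.76 and 6.95, near the array medians of 6.79, and the brightest probe averaged 7.40.

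Asns, asparagine synthetase, averaged -0.30 (adjusted p = 0.107), and -0.39 without the 2 arrays (adjusted p = 0.00124). Its 2 other probes, fitted with all arrays, gave 0.12 and -0.08 and did not pass. Psat1, a serine synthesis enzyme, averaged 0.21 (adjusted p = 0.567), and 0.27 without them (adjusted p = 0.00395). Among the synthetases, Nars, which charges asparagine tRNA, was higher by 0.29 (SE 0.08, adjusted p = 0.0138). Its corticosterone arrays ranged from 9.95 to 10.35 and those with both compounds from 10.28 to 10.90, with no overlap at 2 h or 6 h. At 2 h corticosterone gave 10.08, 10.04 and 9.95 and both compounds 10.28, 10.31 and 10.35. Aars, Sars, Wars and Gars differed by -0.20 to 0.07 and did not pass in either fit.

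Among the sensors and their effectors, Xbp1, the factor that IRE1 activates by splicing its messenger, was lower (log2 difference -0.39, SE 0.12, adjusted p = 0.0238). At 4 h corticosterone gave 11.36, 11.26 and 11.25 and both compounds 10.73, 10.71 and 11.05, without overlap, while the groups overlapped at 2 h and 6 h. The call was lost without replicate 1 of corticosterone at 2 h or 6 h, or without replicate 2 or 3 at 2 h or replicate 1 or 2 at 4 h of both compounds (adjusted p up to 0.0576). The probes do not tell the spliced from the unspliced messenger as far as the files say. Ern1, which encodes IRE1, averaged -0.25 (adjusted p = 0.529), and -0.37 without the 2 arrays (adjusted p = 0.0028), while its second probe gave 0.02 with all arrays. Ppp1r15a, the phosphatase subunit that reverses eIF2 phosphorylation, averaged 0.29 (adjusted p = 0.292), and 0.33 without them (adjusted p = 0.00655). Eif2ak3 (PERK), Eif2ak4 (GCN2) and Atf6, all near the array median, differed by 0.03 to 0.10.

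Among the ER proteins, Hsp90b1, the chaperone GRP94, was higher. Corticosterone ranged from 12.04 to 12.63 with a median of 12.51, and both compounds from 12.20 to 13.62 with a median of 13.16. At 4 h the values were 12.31, 12.62 and 12.61 against 13.29, 13.11 and 13.18. The groups overlapped at 2 h and not at 4 h or 6 h, and the averaged difference was 0.61 (SE 0.15, adjusted p = 0.0072).

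Dnajc3 was lower. At 4 h corticosterone gave 11.70, 11.73 and 11.72 and both compounds 11.04, 10.86 and 10.84, and at 2 h the groups also did not overlap. At 6 h replicate 3 with both compounds was at 11.97, beside 10.82 and 10.82. The averaged difference was -0.49 (SE 0.16, adjusted p = 0.0379) and -0.62 (SE 0.08, adjusted p = 8.14e-07) without the 2 arrays. Leaving out 1 array at a time gave -0.43 to -0.62. The call remained without corticosterone 2 h replicate 2 or 6 h replicate 3, or without replicate 1 or 2 at 2 h, replicate 1 at 4 h or replicate 3 at 6 h of both compounds. It was lost without each of the other 12 arrays (adjusted p 0.0578 to 0.0872) and with no filter on dim probes (0.0545).

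Herpud1 was lower (log2 difference -0.33, SE 0.08, adjusted p = 0.0076). Both compounds ranged from 11.48 to 11.91 with a median of 11.61, and the groups did not overlap at 4 h or 6 h. Its second probe differed by -0.08 and did not pass. Hspa5, the central ER chaperone BiP, averaged 0.21 (adjusted p = 0.076). At 4 h it read 7.05, 7.15 and 7.29 under corticosterone and 7.62, 7.57 and 7.72 under both, without overlap, a difference of 0.47 (adjusted p = 0.0518). Both values passed without the 2 arrays (adjusted p = 0.016 averaged, 0.00217 at 4 h). The only Hspa5 probe averaged 7.36 over all arrays, not far above the array medians of 6.79, where Hsp90b1 averaged 12.76.

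Beside these changes, some cell type markers passed in the same averaged comparison, where 12.9% of all genes tested passed. Of 5 measured microglial markers 1 passed (Csf1r, 0.51), and of 5 neuronal markers 1 (Stmn2, 0.42). Of 8 astrocyte markers Gfap was higher by 1.52 and Glul, glutamine synthetase, was lower (-0.60). None of 6 oligodendrocyte-lineage or 4 endothelial markers passed. The share that passed was 20% of the microglial, 20% of the neuronal and 25% of the astrocyte list, each of few genes. Summed microglial intensity was 951 to 1857 under corticosterone and 1103 to 1619 under both, within that range. The summed neuronal intensity was 7018 to 8189 and 7498 to 13314. The fibroblast or meningeal sum over 3 markers, none of which passed, was 730 to 987 and 1018 to 1827, without overlap. The part of these in the results was not tested.

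**Figure D2:**
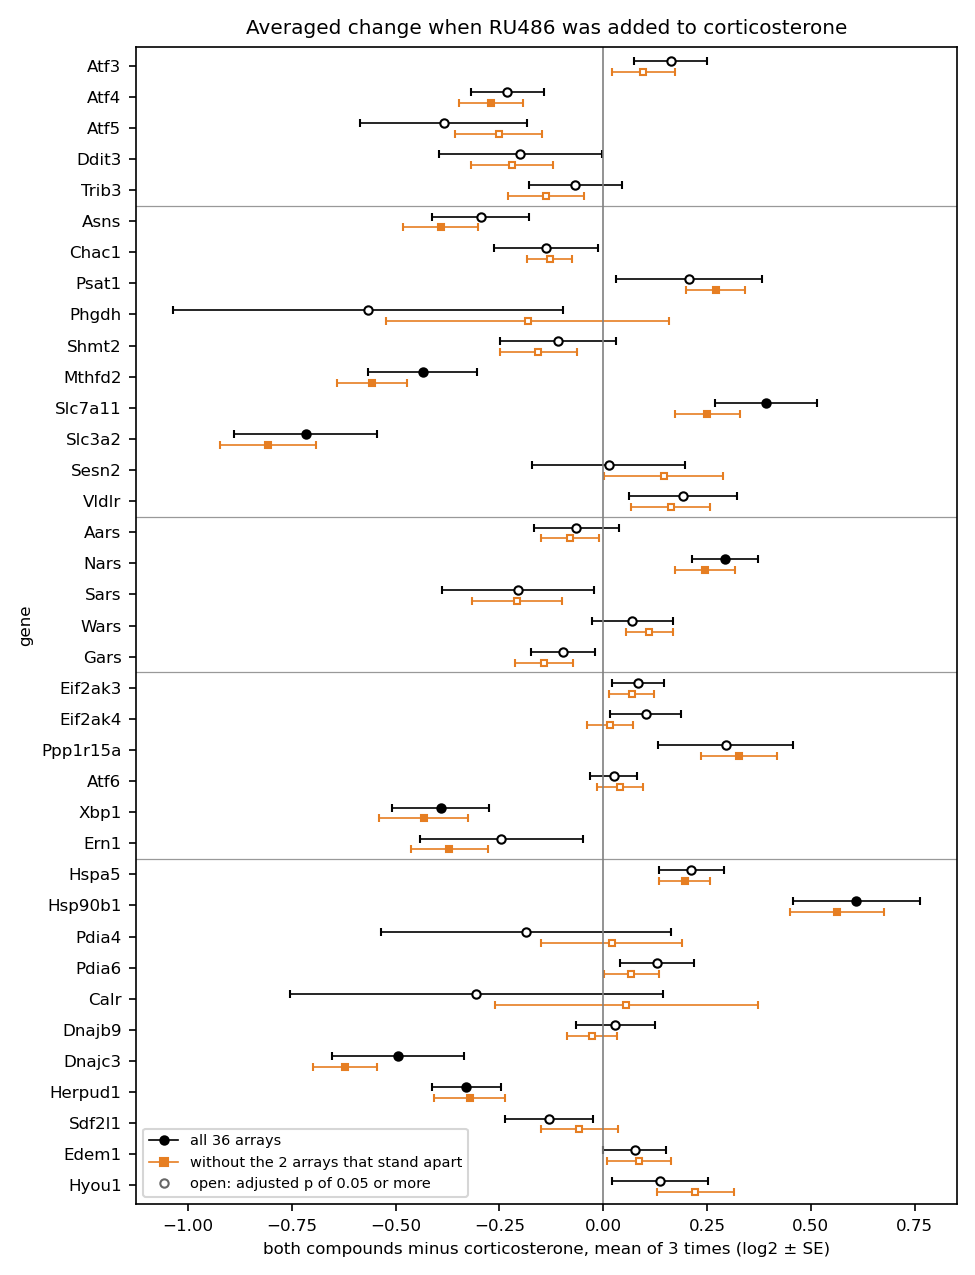
For each of the 37 genes, the horizontal axis gives corticosterone with RU486 minus corticosterone, averaged over 2, 4 and 6 h, on the log2 scale, with bars of 1 SE. Circles use all 36 arrays and squares leave out the 2 that stand apart, and filled symbols passed an adjusted p of 0.05. The lowest value with all arrays was -0.72 for Slc3a2 and the highest 0.61 for Hsp90b1.

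At single times no gene of the set passed between both compounds and corticosterone with all arrays, where 0.782% of all genes passed at 2 h, 3.15% at 4 h and 1.4% at 6 h in limma. Unadjusted p-values under 0.05 numbered 6, 7 and 7 among the 37, beside 2198, 2665 and 2337 among all 18935 genes tested. Once the 2 arrays were left out, 5 passed at 2 h (10.3% of all genes), 8 at 4 h (18.2%) and 2 at 6 h (4.47%). At 2 h these included Atf4 itself, which was lower (log2 difference -0.48, SE 0.13, adjusted p = 0.0179). Corticosterone gave 11.79, 11.63 and 11.92 for Atf4 at 2 h and both compounds 11.29, 11.37 and 11.23, without overlap. Its second probe, fitted with all arrays, gave -0.58 (SE 0.85, adjusted p = 0.929). Averaged, 14 of the 37 passed without the 2 arrays, 6 higher and 8 lower, where 31.2% of all genes did, 15.7% higher and 15.5% lower.

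**Figure D3:**
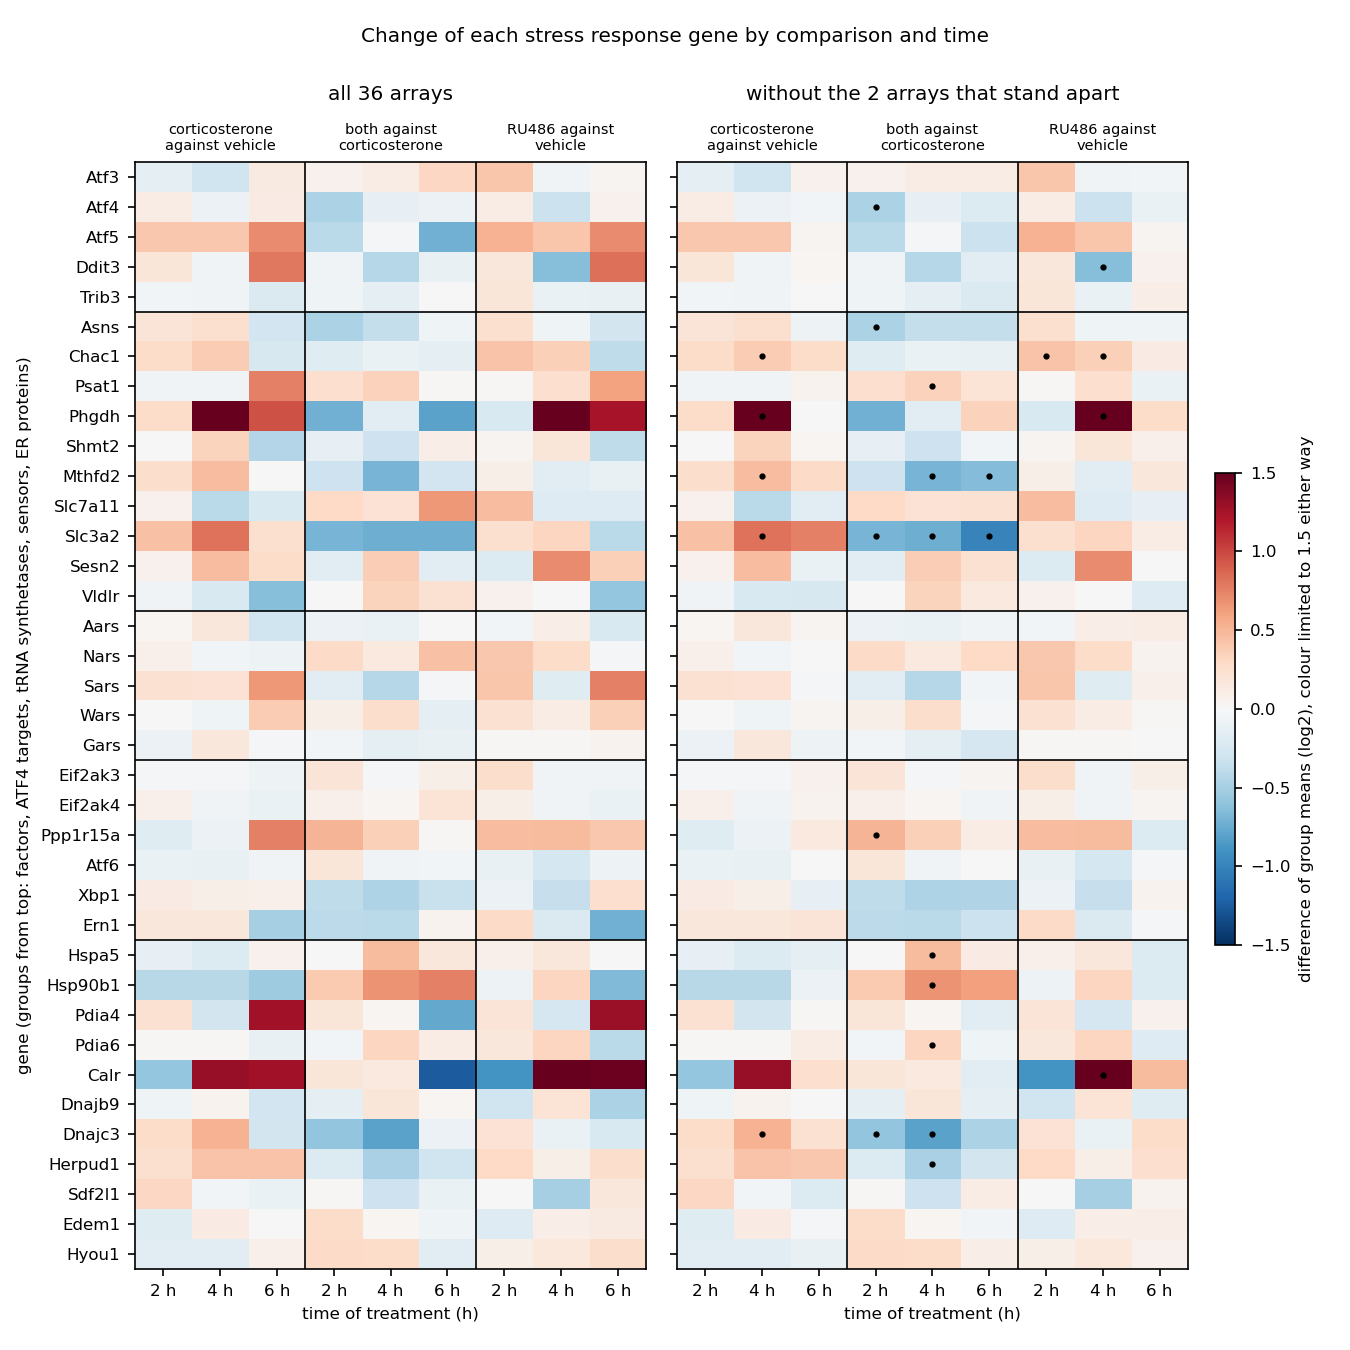
Rows are the 37 genes in their 5 groups and columns are comparisons at 2, 4 and 6 h. Colour is the difference of group means on the log2 scale, and a dot marks an adjusted p under 0.05. The left panel uses all 36 arrays and holds no dot, and the right panel leaves out the 2 arrays that stand apart.

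RU486 alone was the next comparison. None of the 37 passed against vehicle at any time or averaged, where limma called 0% of all genes at 2 h, 0.00528% at 4 h, 0% at 6 h and 0.0739% averaged. With an unadjusted p under 0.05 there were 5, 6, 9 and 8 of the 37, beside 1340, 1197, 4108 and 1882 of all 18935 genes tested. Chac1 passed without the 2 arrays, averaged over the times, at 0.31 (SE 0.05, adjusted p = 0.0056), where 1.49% of all genes passed. At 4 h vehicle gave 8.63, 8.51 and 8.49 for Chac1 and RU486 8.97, 8.93 and 8.81, without overlap. Chac1 was also higher under corticosterone without these arrays, and both comparisons use the same vehicle arrays. Ddit3, the pro-apoptotic factor CHOP, read 9.27, 9.32 and 9.50 in vehicle at 4 h and 8.83, 8.63 and 8.70 with RU486 (difference -0.64, adjusted p = 0.861, and 0.0285 without the 2 arrays, where 4.01% of all genes passed).

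Both compounds together, against vehicle, left none of the 37 past the threshold averaged over the times, where 0.512% of all genes passed. An unadjusted p under 0.05 was reached by 6 of the 37, beside 2588 of all 18935 genes tested. In the fit without the 2 arrays 5 passed, where 6.51% of all genes did. Nars (0.26) and Psat1 (0.25) were higher, and Xbp1 (-0.40), Dnajc3 (-0.28) and Atf4 (-0.28) lower. The second Atf4 probe gave 0.14 with all arrays. Herpud1 differed from vehicle by 0.03 (SE 0.08) under both compounds.

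Whether the corticosterone effect changed when RU486 was present was tested as an interaction, averaged over the times. It passed for 3 of the 37, where 5.97% of all genes passed: Herpud1 (-0.55, SE 0.12, adjusted p = 0.0049), Hsp90b1 (0.75, SE 0.22, adjusted p = 0.0363) and Atf5, an ATF4-related factor (-0.93, SE 0.28, adjusted p = 0.0489). The second probe of Herpud1 gave -0.38 and did not pass (adjusted p = 0.132). For Herpud1 the corticosterone effect was 0.36 without RU486. RU486 alone read 11.49 to 12.21 for Herpud1, with a median of 11.82. Means of the 9 arrays in vehicle, corticosterone, RU486 alone and both compounds were 11.62, 11.98, 11.84 and 11.65 for Herpud1. They were 12.868, 12.415, 12.731 and 13.025 for Hsp90b1 and 10.59, 11.09, 11.14 and 10.71 for Atf5. In each gene the mean moved 1 way with corticosterone alone and the other way when corticosterone was added to RU486. The reason was not tested. The call remained in 36 of 36 fits that left out 1 array for Herpud1, in 19 for Hsp90b1 (adjusted p up to 0.0708) and in 9 for Atf5 (up to 0.0960). With no filter on dim probes both of the latter were lost (0.0524 and 0.0723), and the replicate number as a block ended that of Atf5 (0.0528). The Atf5 value rests in part on the 2 arrays: at 6 h vehicle gave 9.23, 11.16 and 11.33 and both compounds 10.98, 10.93 and 9.77. Without them it was -0.58 (SE 0.15, adjusted p = 0.00675). Slc3a2 reached -0.77 (adjusted p = 0.0588) with all arrays and -1.03 (adjusted p = 7.14e-05) without the 2, among 9 genes that then passed, where 20.5% of all genes did.

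Several of these genes differed between the hours in vehicle alone. Between 2 and 6 h, 7 of the 37 changed by limma's F test over the 3 times, where 10.5% of all genes did. The adjusted p-values below are those of the F test, and the sizes are 6 h minus 2 h. In a fit of the vehicle arrays alone none of the 7 passed (adjusted p 0.417 for Atf3). Atf3, a stress-induced factor, Ppp1r15a and Ddit3 fell, and Atf4, the ER co-chaperone Dnajb9, Slc3a2 and Chac1 were higher at 6 h than at 2 h.

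Atf3 in vehicle went from 8.57, 8.43 and 8.67 at 2 h to 7.43, 7.71 and 7.74 at 4 h and 7.15, 7.38 and 7.39 at 6 h. The 2 h arrays lay above all later ones, and the change from 2 to 6 h was -1.25 (SE 0.15, adjusted p = 4.16e-05). The same test in the other treatments, chosen after the vehicle values were seen, gave -0.96 with corticosterone (adjusted p = 0.000102), -1.62 with RU486 (adjusted p = 2.4e-07) and -0.71 with both (adjusted p = 0.000174). In all 4 treatments the 2 h arrays did not overlap the 4 h or 6 h arrays.

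Ppp1r15a in vehicle read 9.86, 10.08 and 9.77 at 2 h, 9.43, 9.28 and 9.15 at 4 h and 7.44, 9.09 and 9.40 at 6 h. The change was -1.26 (SE 0.28, adjusted p = 0.0157), and -0.66 (adjusted p = 0.00546) without the 2 arrays, 1 of which holds the value of 7.44. Without vehicle 2 h replicate 2 the call was lost (adjusted p = 0.0626). With RU486 it was -1.33 (adjusted p = 0.00855), while it did not pass with corticosterone (-0.33, adjusted p = 0.564) or with both (-0.83, adjusted p = 0.106). Whether the treatments differ in this was not tested.

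Atf4 rose. Vehicle gave 11.84, 11.53 and 11.64 at 2 h and 12.29, 12.25 and 12.41 at 4 h, without overlap, and the change from 2 to 6 h was 0.54 (SE 0.15, adjusted p = 0.0141, and 0.0791 without vehicle 2 h replicate 2). With both compounds Atf4 went from 11.29, 11.37 and 11.23 at 2 h to 12.17, 12.10 and 12.49 at 6 h, a change of 0.96 (adjusted p = 0.000223). It read 0.56 with corticosterone (adjusted p = 0.0503) and 0.48 with RU486 (adjusted p = 0.0903), and both passed without the 2 arrays, where 27.6% and 42.6% of all genes did. A second probe of Atf4, with an SE of 0.85, passed in neither test and had the opposite sign, at -1.14 in vehicle (adjusted p = 0.526) and -0.93 with both compounds (adjusted p = 0.467).

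Dnajb9 rose from 10.49, 10.77 and 10.81 at 2 h to 12.09, 11.14 and 11.30 at 6 h in vehicle, by 0.82 (SE 0.17, adjusted p = 0.00788). Replicate 1, at 12.09, stands apart, and without the 2 arrays the rise was 0.53 (adjusted p = 0.00449). It also rose with RU486 (0.64, adjusted p = 0.00499) and with both (0.77, adjusted p = 0.00409), and read 0.61 with corticosterone (adjusted p = 0.0641). Its second probe also rose in vehicle (adjusted p = 0.0076) and with both (adjusted p = 0.0052), and did not pass with RU486 (adjusted p = 0.154).

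The calls of Ddit3 and Slc3a2, and for Chac1 only the size and sign of the change, rest on vehicle 6 h replicate 1. Ddit3 there was 6.88, beside 9.19 and 9.14, and its change went from -1.19 (adjusted p = 0.0425) to -0.42 (adjusted p = 0.222) without the 2 arrays. Its second probe gave -0.0060 with all arrays (adjusted p = 0.839). Slc3a2 went from 0.99 (adjusted p = 0.0449) to 0.47 (adjusted p = 0.24). Chac1 was 10.42, beside 8.97 and 8.80, and its change of 0.44 (adjusted p = 0.0329) became -0.070, while its F test still passed (adjusted p = 0.00458), with 4 h the lowest time. Without the 2 arrays 16.5% of all genes passed in vehicle. Of the 9 fits that left out 1 vehicle array, Ddit3 and Slc3a2 passed in 2, those without replicate 2 or 3 at 6 h, and Chac1 in 4.

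**Figure D4:**
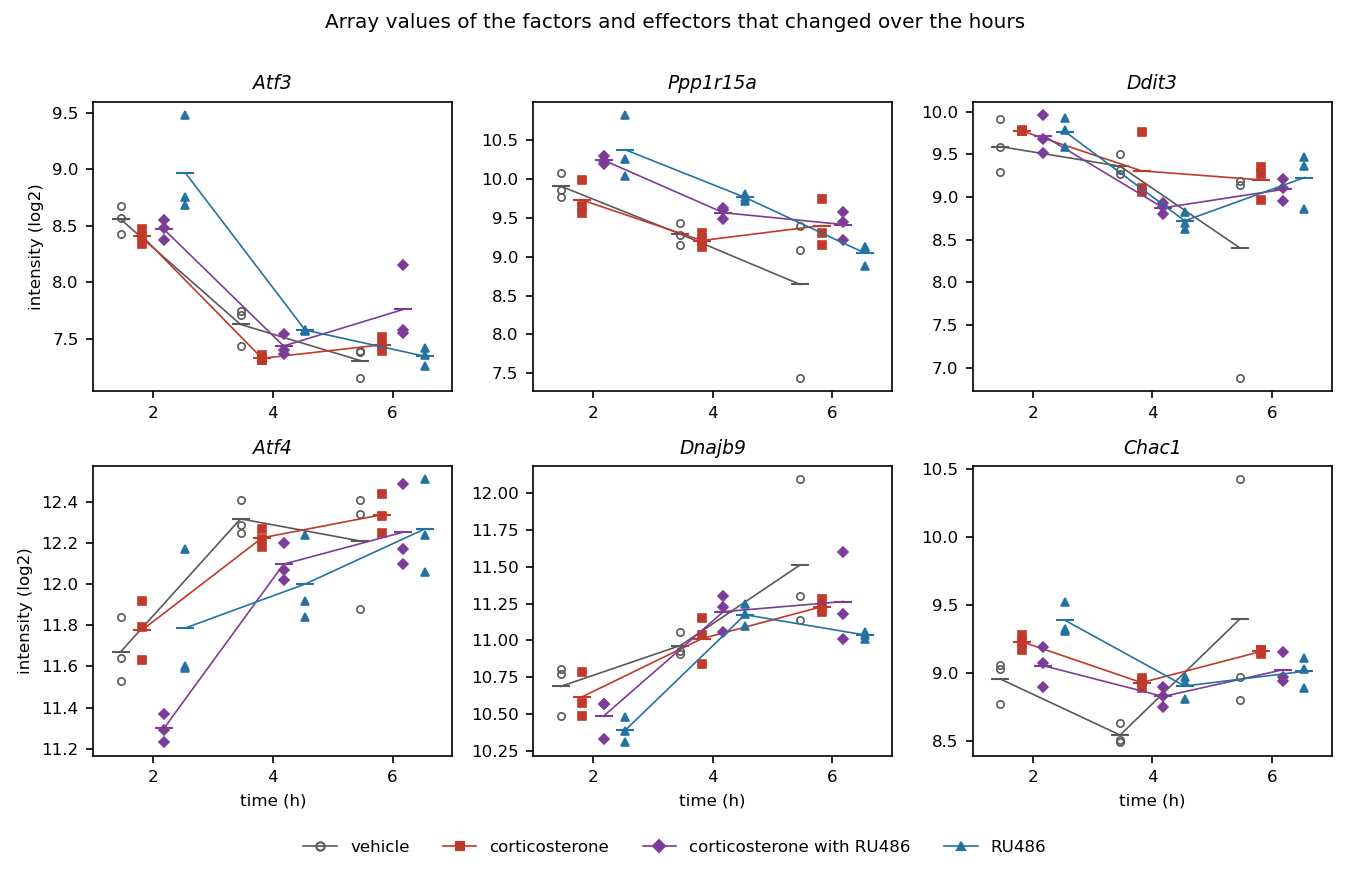
Log2 intensity on the vertical axis is plotted against hours on the horizontal axis for 6 genes, with 36 arrays per panel in 4 treatments, bars at group means and lines joining them. Atf3 is higher at 2 h than later in each treatment, Atf4 and Dnajb9 are lower at 2 h by their means, and 1 vehicle array at 6 h lies far from the other 2 for Ppp1r15a, Ddit3, Dnajb9 and Chac1.

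Over time with corticosterone, Atf3 was 1 of 37 that passed, where 4.53% of all genes did. With RU486, 6 passed, where 9.9% of all genes did: Atf3, Ppp1r15a and Dnajb9 as above, with Slc7a11 (-0.79, adjusted p = 0.0314), Trib3, a pseudokinase induced by CHOP (-0.49, adjusted p = 0.0271), and Eif2ak3 (-0.32, adjusted p = 0.0482). Trib3 with RU486 read 8.27, 7.73 and 7.72 at 2 h, 7.29, 7.03 and 7.12 at 4 h and 7.43, 7.48 and 7.33 at 6 h, so its 2 h arrays lay above the later ones. Leaving out RU486 2 h replicate 1 ended the calls of Ppp1r15a (adjusted p = 0.0577), Trib3 (0.187), Slc7a11 (0.226) and Eif2ak3 (0.351). The call of Trib3 was also lost without replicate 2 or 3 at 4 h, while Slc7a11 kept its call in 3 of the 9 such fits and Eif2ak3 in 2. No other probe of these 3 genes passed with RU486: the second probes of Trib3 and Eif2ak3 each gave -0.01, and the other Slc7a11 probes 0.02 and -0.36. Eif2ak3, near the array median, read 7.22, 6.80 and 6.92 at 2 h, 6.67, 6.63 and 6.56 at 4 h and 6.59, 6.61 and 6.78 at 6 h. With both compounds, 5 passed, where 8.78% of all genes did, and 14 passed without the 2 arrays, where 27.7% did. The 5 were Atf3, Atf4 and Dnajb9, with Hspa5 (0.43, adjusted p = 0.0319) and Sdf2l1, a component of an ER chaperone complex (-0.70, adjusted p = 0.0321). Hspa5 with both compounds read 7.15, 7.14 and 7.14 at 2 h, 7.62, 7.57 and 7.72 at 4 h and 7.49, 7.57 and 7.67 at 6 h, so all 2 h arrays lay below all later ones. The Hspa5 call was lost without any 1 of the 2 h arrays, or without replicate 1 or 3 at 4 h (adjusted p up to 0.109), and that of Sdf2l1 without replicate 1 or 3 at 2 h or replicate 3 at 6 h (up to 0.214). Sdf2l1 read 8.52, 7.98 and 8.12 at 2 h, 7.63, 7.61 and 7.90 at 4 h and 7.72, 7.72 and 7.07 at 6 h, highest at 2 h. The hour and anything else that differed between cultures harvested at different hours cannot be told apart.

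The widest spreads within groups were those of 3 genes. Phgdh, the first enzyme of serine synthesis, had a within-group SD of 1.05 over all arrays, Calr, the lectin chaperone calreticulin, 1.01 and Pdia4, a disulfide isomerase, 0.78, where the median over the 37 was 0.255. Without the 2 arrays these were 0.77, 0.72 and 0.38. Phgdh in vehicle read 10.34, 10.66 and 8.18 at 2 h, 9.61, 8.09 and 7.58 at 4 h and 7.26, 9.99 and 10.28 at 6 h, and arrays of the same group lay far apart.

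At 4 h the vehicle arrays were low for both Phgdh and Calr. Calr gave 9.21, 8.51 and 7.93 in vehicle and 10.11, 10.80 and 12.11 with RU486, a difference of 2.46 (adjusted p = 0.376, and 0.011 without the 2 arrays). Phgdh with RU486 gave 10.32, 10.52 and 10.47, a difference of 2.01 (adjusted p = 0.613, and 0.041), and with corticosterone 1.94 (adjusted p = 0.383, and 0.0302). These groups did not overlap at 4 h, while vehicle arrays at other hours reached 10.66 for Phgdh and 11.40 for Calr. Sesn2 was low on the same vehicle arrays, at 7.17, 6.84 and 6.77. At 2 h Phgdh, Calr and Sesn2 were each lowest of their group on vehicle replicate 3 (8.18, 8.92 and 7.17). The same held for replicate 1 of RU486 (8.47, 8.56 and 7.16) and of both compounds (7.48, 8.67 and 6.74). The fit without the 2 arrays that stand apart keeps all these arrays. The cause of the shared low values was not tested.

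**Figure D5:**
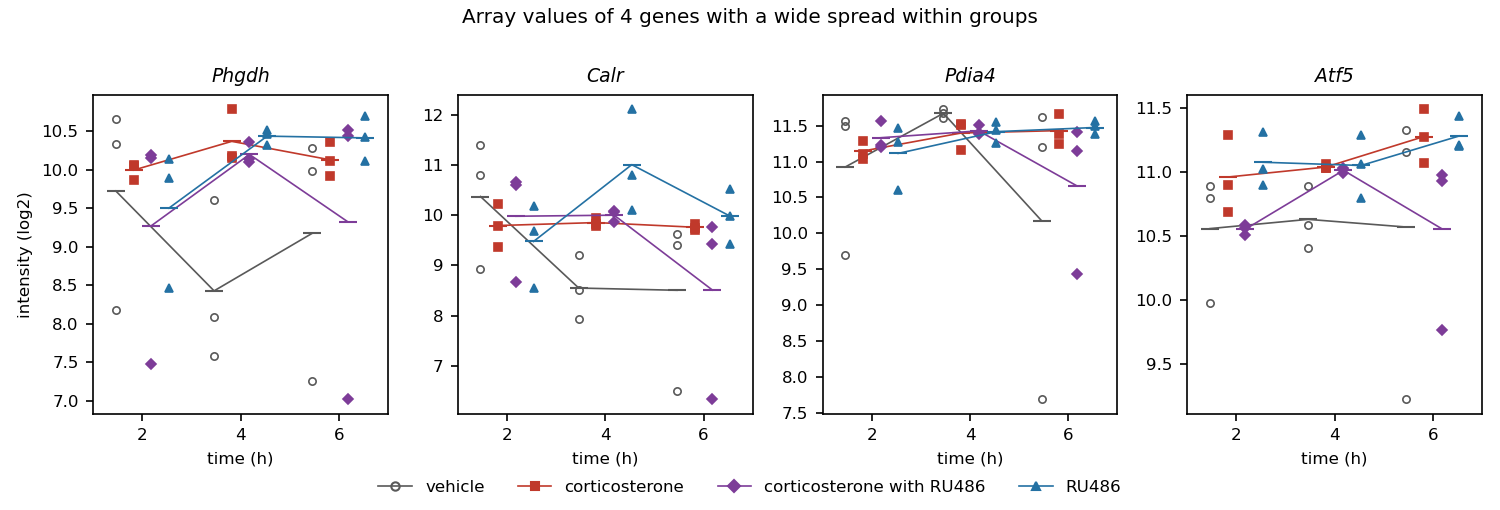
Log2 intensity on the vertical axis is plotted against hours on the horizontal axis for Phgdh, Calr, Pdia4 and Atf5, with all 36 arrays as points, bars at group means and lines joining them. For Phgdh and Calr, arrays of the same group lie up to several log2 units apart in vehicle and in corticosterone with RU486.

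The remaining members can be given by range. Shmt2, Sesn2 and Vldlr, of folate metabolism, leucine sensing and lipoprotein uptake, differed between both compounds and corticosterone by -0.11, 0.01 and 0.19, and Pdia6, Edem1 and Hyou1, of disulfide exchange, mannose trimming and chaperoning, by 0.13, 0.08 and 0.14. None of these 6 passed in any treatment comparison with all arrays. The within-group SD was lowest for Atf6, at 0.107.

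Further genes of the same pathways, outside the 38, were counted in the averaged comparisons. Of 26 measured further genes of the integrated stress response, 3 were higher and 1 lower with corticosterone against vehicle, and 6 higher and 5 lower with both against corticosterone. These are 15.4% of the list beside 2.96% of all genes tested, and 42.3% beside 12.9%. The lists of further genes were chosen with earlier results of these data known. Their shares are therefore not read as results about the pathways. Ddit4, an inhibitor of mTORC1 signalling, rose with corticosterone by 0.65 (SE 0.10, adjusted p = 9.19e-05) and was lower with both than with corticosterone (-0.67, adjusted p = 2.9e-05). Slc38a2, a transporter of neutral amino acids, gave 0.40 and -0.47, and Cbs, an enzyme of cysteine synthesis, 0.42 and -0.33. Aldh18a1, of proline synthesis, moved the other way, at -0.58 and 0.80. Jdp2, a bZIP repressor, was higher (0.58) and Eif4ebp1, a repressor of translation initiation, lower (-0.49) with both than with corticosterone.

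Of 15 further tRNA synthetases, Vars was lower with corticosterone (-0.31) and higher with both than with corticosterone (0.51), and Farsa was lower in the second comparison (-0.40). The remaining 13 did not pass in either, which makes 6.67% of the list in the first comparison and 13.3% in the second, beside the same 2.96% and 12.9%. Of 30 further genes of the unfolded protein response, none passed with corticosterone against vehicle, and 1 was higher and 5 lower with both against corticosterone, 20% of the list beside 12.9% of all genes (7.35% higher and 5.5% lower). The largest, picked by size, were Edem2 (-0.63, SE 0.11, adjusted p = 0.00024), the ubiquitin ligase Syvn1 (-0.59, SE 0.11, adjusted p = 0.000336) and Derl2 (-0.49, SE 0.16, adjusted p = 0.0437). These act in ER-associated degradation, as does Edem1 of the set, with means of 6.78 under corticosterone and 6.86 under both. Whether genes of that process moved as a set was not tested. Ssr1, a subunit of the translocon-associated complex, was higher (0.36, adjusted p = 0.0352).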

How the data were processed

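Messenger RNA of mouse astrocyte cultures was hybridised to Illumina bead arrays, 1 sample per array and 36 in all, which the labels place in 12 groups of 3. The authors deposited linear intensities of 45281 probes, made with GenomeStudio per the submitters' processing notes (version not given in the sources used here). Once sorted, the 36 columns agree to within 1.15%, which is the mark of quantile normalization, and the lowest value is far above 0, so no background subtraction is visible. A table with 72 further columns of per-sample values was not used, because their names match no label. The number of arrays limits the precision.

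Intensities were put on the log2 scale with no pseudocount. A probe stayed in if it exceeded the median of the array on 3 or more arrays, which left 28397, and each of 18935 genes was represented by its brightest probe. Of the gene names, 11396 were current in RefSeq (GRCm38.p6), 3039 came from a synonym and 4500 were those of the file. The functions lmFit and eBayes of limma 3.58.1, under R 4.3.3, fitted a model of 12 group means. Adjustment of p-values ran over all genes tested by the Benjamini-Hochberg procedure, with 0.05 as the threshold. Errors are standard errors (SE) of that fit. Averaged comparisons weight the 3 times equally, and limma's F test compared the 3 times within a treatment. The F tests in the treated groups were added after the vehicle values were seen.

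The members, gene lists and alternatives were chosen with earlier results of these data known. Values on the single arrays of the groups concerned are given for members that passed in at least 1 comparison and for Atf4, Ddit3, Hspa5 and Xbp1, and the other members by range. Phgdh and Calr were added for their wide spread, and Sesn2 for low values on the same arrays, after their values were seen. Of further pathway genes, at most 4 per list are named for each averaged comparison, those that passed with the largest differences. Motifs were searched on both strands of RefSeq promoters. Alternatives were all probes separately, no filter, normexp with an offset of 16, cyclic loess, a replicate block, array weights estimated gene by gene, an intensity trend with robust prior, the groups compared alone, the fit without the 2 arrays that stand apart, and each array left out. The fitting procedure was tested on simulated data. Plots were drawn with matplotlib 3.10.9.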

Additional observations from a re-analysis of the deposited data

Results flagged for a closer look

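For 3 genes the corticosterone effect differed between cultures with and without RU486, by the interaction test averaged over 2, 4 and 6 h in limma. The difference of the effects on the log2 scale was -0.93 for Atf5 (adjusted p = 0.0489), 0.75 for Hsp90b1 (adjusted p = 0.0363) and -0.55 for Herpud1 (adjusted p = 0.0049). Without the 2 arrays that stand apart the values were -0.58, 0.55 and -0.53. The Atf5 call was lost with a replicate block (adjusted p = 0.0528) and in 27 of 36 fits that left out 1 array, and that of Hsp90b1 in 17. The second probe of Herpud1 gave -0.38 and did not pass (adjusted p = 0.132).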

How the results depend on the processing

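Of 53 changes of single genes refitted under the alternatives other than single left-out arrays, 398 of 477 fits kept the direction and the side of the threshold, 25 lost the call, 52 gained one and 2 reversed. The 2 were the change of Chac1 in vehicle, which became -0.040 with array weights and -0.070 without the 2 arrays that stand apart. With single arrays left out it ranged from -0.070 (without vehicle 6 h replicate 1) to 0.74. The interaction of Ern1, which did not pass with all arrays, ranged from -0.26 to 0.096 with single arrays left out. Of 171 counts of genes that passed, 125 stayed within 1.5 times. With array weights, 1, 15, 4 and 14 of the 37 passed for corticosterone against vehicle at 2, 4 and 6 h and averaged, and 10, 21, 12 and 25 for both compounds against corticosterone. They were 2, 23 and 8 for RU486 at 2 h, 4 h and averaged, and 14 for both against vehicle. They were 20 for the interaction, and 16, 18, 28 and 20 over time in vehicle, corticosterone, RU486 and both. Of all genes tested, 28.1% passed with array weights in the averaged corticosterone comparison, and 48.3% in that of both against corticosterone. Without the 2 arrays the counts were 5 and 5 for corticosterone at 4 h and averaged, and 5, 8, 2 and 14 for both against corticosterone. They were 1, 4 and 1 for RU486 at 2 h, 4 h and averaged, 5 for both against vehicle, 9 for the interaction, and 11, 13, 19 and 14 over time. Of all genes, 8.83% and 12.4% then passed for corticosterone, and 10.3%, 18.2%, 4.47% and 31.2% for both against corticosterone. For RU486 at 4 h and averaged 4.01% and 1.49% did, for both against vehicle 6.51% and for the interaction 20.5%. Over time 16.5%, 27.6%, 42.6% and 27.7% did. With only the groups compared the counts were 11 and 0 for corticosterone at 4 h and averaged, and 3 and 17 for both against corticosterone at 2 h and 4 h. They were 4 for RU486 at 4 h, and 0, 13 and 14 over time in vehicle, corticosterone and RU486. Cyclic loess gave 2 for both against corticosterone at 4 h and 3 for corticosterone over time, and no filter gave 1 for the interaction and 2 for corticosterone over time. Where no share of all genes is given, the count is not read as a result about the set. The cause of these shifts was not tested.

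The labels do not link arrays of the same replicate number, and the numbers were not taken to pair the samples in the main fit. Some pairs with the same number deviated together and others did not, which does not settle whether the numbers pair the samples. In each 2 h group replicate 1 had the lowest array weight (0.54 with corticosterone, 0.15 in vehicle, 0.19 with RU486 and 0.24 with both). Of 54 pairs with the same number and time, 26 had deviations correlated over 0.1 (median 0.089), against 31 of 108 pairs with other numbers (median -0.024), and 13 of 36 arrays correlated best with their own number. A replicate block gave 2 for both against corticosterone at 4 h and 2 for corticosterone over time, and left the other counts within 1.5 times. It ended the calls of Atf5 in the interaction (adjusted p = 0.0528) and of Ddit3 in vehicle over time (adjusted p = 0.0510).

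With single arrays left out, corticosterone against vehicle gave 0 to 10 at 6 h (6 and 10 without vehicle 6 h replicates 2 and 3) and 1 to 3 averaged (2 without vehicle 2 h replicate 1 or 6 h replicate 2 or 3, and 3 without 6 h replicate 1). Both against corticosterone gave 0 to 1 at 6 h (1 without replicate 1 or 2 of both at 6 h) and 5 to 10 averaged (5 without replicate 3 of both at 2 h or corticosterone 6 h replicate 1). RU486 against vehicle gave 0 to 13 at 6 h (9 and 13 without vehicle 6 h replicates 2 and 3) and 0 to 1 averaged (1 without vehicle 6 h replicate 1). Both against vehicle gave 0 to 1 (1 without vehicle replicate 3 at 2 h or 6 h). The interaction gave 1 to 6 (6 without vehicle 6 h replicate 1, 5 without vehicle 2 h replicate 1, and 1 in 15 fits). Over time, vehicle gave 2 to 16 (4 and 2 without 2 h replicates 1 and 2, 4 without any 4 h array, 15 and 16 without 6 h replicates 2 and 3), RU486 3 to 7 (3 without 2 h replicate 1 or 4 h replicate 2 or 3), and both 3 to 6 (3 without 2 h replicate 1 or 3). The share of all genes is not given for the fits with single arrays left out, so these ranges describe only the dependence on single arrays. The background correction neqc and the bead chip as a block were not run, because the columns they need match no label.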
